A study of Mus musculus with 32 samples.

Results

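The late phase of the LPS response was compared between wild-type and Nur77-deficient macrophages across all genes, in the 8 libraries taken at 18 h of the 32 of the series. BMDM-WT and BMDM-Nur77-KO are macrophages grown for 7 days in L929-conditioned medium from the bone marrow of male mice aged 6 to 12 weeks, with C57Bl6/J as the strain in the labels, and all 8 libraries come from cells that received 100 ng/ml LPS for 18 h. The knockout is a whole-body deletion of Nr4a1, the gene of Nur77, obtained by breeding mice with loxP-flanked Nr4a1 to CMV-Cre mice and then breeding knockout mice without Cre. The labels give the genotype of these samples as cre, and the controls were wild-type littermates. Each genotype has 4 replicates. The study describes cells seeded in 4 replicates and the sources used here do not tie the replicates to animals, so the p-values measure the spread between these samples, which may be technical. Of 25067 genes in the table, each represented by its transcript with the highest mean count, 11279 passed the filter on low values and were tested.

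Nur77 is an orphan nuclear receptor of the NR4A family, encoded by an immediate early gene that macrophages switch on within an hour of a Toll-like receptor signal. It binds DNA at a short element, the NBRE, and is known as a brake on inflammatory gene expression in macrophages. LPS acts through Toll-like receptor 4, which starts NF-kB and AP-1 transcription early and, through secreted interferon beta, a later wave of interferon-stimulated genes. The comparison at 18 h asks which genes still differ long after the transient rise of Nr4a1 itself.

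The targeted gene gave little information at 18 h. Nr4a1 stood at 0.448, 0, 0.21 and 0.245 CPM in the knockout and 0.366, 0.476, 0.174 and 0.259 CPM in the wild type, with overlapping groups (log2 fold change -0.47, standard error 0.69, adjusted p = 0.68). Tests are edgeR's quasi-likelihood tests, with p-values adjusted over the 11279 genes after Benjamini and Hochberg. CPM are counts relative to the library size as scaled with edgeR's TMM method, and fold changes are given as BMDM-Nur77-KO over BMDM-WT throughout. The labels were checked at 1 h of LPS, where Nr4a1 is abundant: it reached 190.5 ± 39.9 CPM in BMDM-Nur77-KO and 437 ± 60.3 CPM in BMDM-WT (SD, n = 4 each), a log2 fold change of -1.20 (adjusted p = 1.8e-06, edgeR). The table holds 1 value per transcript and does not tell exons of the deleted part from the others. The related receptor Nr4a2 stood higher in the knockout, at 3.13, 4.99, 4.35 and 6.06 CPM in the knockout and 2.56, 2.19, 2.44 and 1.73 CPM in the wild type. On the log2 scale the difference was 1.06 (standard error 0.24, adjusted p = 0.0014, edgeR). All 4 knockout values lay above the wild-type ones. The third member, Nr4a3, was near the detection limit in both groups (0.771 ± 0.375 against 0.244 ± 0.125 CPM, SD, n = 4 each), and its call (log2 fold change 1.61, adjusted p = 0.02, edgeR) was lost without replicate 4 of BMDM-Nur77-KO (log2 fold change 1.24, adjusted p = 0.13, edgeR) and without replicate 1 or 2 of BMDM-WT.

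A gene was called when its adjusted p was under 0.05 and its log2 fold change was past 0.58 in either direction. At 18 h, 643 genes (5.7% of those tested) were higher in the knockout and 465 (4.12%) were lower, with median log2 fold changes of 0.92 and -0.84 among them and of -0.01 over all genes tested. For 1218 genes (10.8%) all 4 BMDM-Nur77-KO values lay above all 4 BMDM-WT values, and for 1147 (10.2%) all lay below; 565 of the 643 higher and 397 of the 465 lower genes were among these. At 0 h, before LPS, 268 genes (2.38%) were higher and 275 (2.44%) lower by the same limits. Of the genes higher at 18 h, 121 were already higher at 0 h and 24 had been lower, whereas 498 were called in neither direction. Of the genes lower at 18 h, 82 were already lower, 4 had been higher and 379 were not called. The genotype difference at 18 h departed from that at 0 h for 1060 genes (9.4%, adjusted p under 0.05 for the interaction of genotype and time in edgeR), including 295 of the higher and 179 of the lower genes.

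Counts per library were 12389801 to 15780926 in the knockout and 11080625 to 12418867 in the wild type. In each genotype 1 library stood apart from its group. Replicate 4 of BMDM-Nur77-KO and replicate 3 of BMDM-WT deviated from the mean of the other libraries of their group along the GC content of the transcripts. Spearman's rho across genes was -0.661 and -0.68, against 0.319 to 0.58 in the remaining libraries. For the remaining libraries that mean includes the deviating library, which weighs on their values. The standard deviation of these deviations was 0.443 and 0.309 on the log2 scale against 0.174 to 0.257. Without replicate 4 of BMDM-Nur77-KO, 576 genes were higher and 389 lower, and 527 and 345 of them were among those called with all libraries. Without both libraries the counts were 604 and 425, with 542 and 372 shared. Across the 11279 genes, the log2 fold change between the genotypes itself went with GC content (Spearman's rho -0.236), as a description over genes that share libraries. Without replicate 4 of BMDM-Nur77-KO the rho was 0.007. That fit keeps replicate 3 of BMDM-WT, which deviates alike in the other genotype, so the value does not show that the trend was gone. The median GC content was 47.9% in the higher genes, 51.8% in the lower and 50.2% in all. Removing the trend on GC content from each library gave 707 higher and 438 lower genes. Of these, 596 and 386 were among those called without the removal. Among genes named by the rule, the log2 fold changes of Csf1r (-0.53), Klf6 (0.57), Pparg (-0.53), Steap3 (-0.52) and Zfp36l1 (-0.57) fell under the limit in that fit. The cause of the single changes was not tested. For list members named as called, a call lost without replicate 4 of BMDM-Nur77-KO is given with its value without it. In bulk RNA, fewer cells of a kind and less RNA per cell cannot be told apart, for any gene described here.

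**Figure D1:**
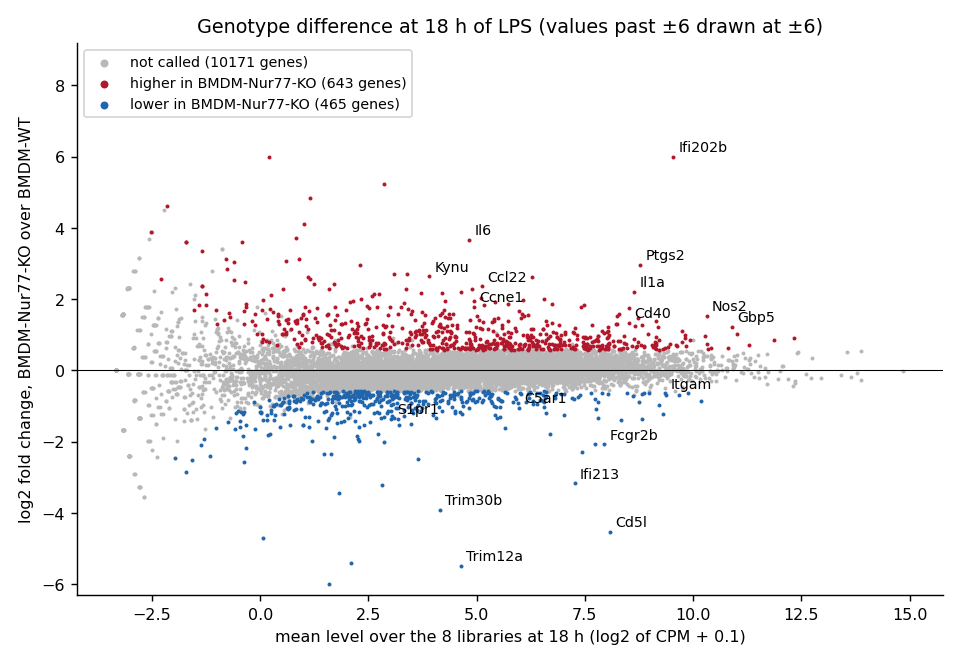
Each point is 1 of 11279 genes, with its mean level over the 8 libraries at 18 h on the x axis (log2 of CPM + 0.1) and the log2 fold change of BMDM-Nur77-KO over BMDM-WT on the y axis; values past 6 either way are drawn at 6. The 643 red genes were called higher and the 465 blue genes lower, and Ifi202b, Ptgs2, Trim12a and Cd5l lie far from the rest at their levels.

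Among genes with a mean of at least 10 CPM over the 8 libraries, Ptgs2, the inducible cyclooxygenase that makes prostaglandins, had the largest increase after Ifi202b and Il6. Ptgs2 stood at 661, 616, 816 and 999.9 CPM in the knockout and 81.8, 92.8, 130.0 and 94.5 CPM in the wild type, a difference of 7.75-fold (log2 fold change 2.95, standard error 0.18, adjusted p = 1.8e-13, edgeR). Every knockout library lay far above the highest wild-type library. At 0 h no difference was called (log2 fold change -0.08, adjusted p = 0.89, edgeR). Ch25h, which makes the oxysterol 25-hydroxycholesterol, was at 16.2, 16.9, 24.1 and 15.2 CPM in the knockout and 2.93, 2.48, 2.78 and 2.94 CPM in the wild type. Ch25h differed by 2.70 on the log2 scale (standard error 0.18, adjusted p = 6.3e-13, edgeR). Kynu, an enzyme of tryptophan breakdown through kynurenine, was at 26.0, 23.5, 21.3 and 31.1 CPM in the knockout and 3.84, 4, 3.22 and 5.18 CPM in the wild type. Its log2 fold change was 2.64 (standard error 0.18, adjusted p = 2.3e-12, edgeR). Neither gene overlapped between the genotypes, and neither was called at 0 h. Il6 (52.3 ± 9.31 against 4.11 ± 1.46 CPM) and Il1a (652 ± 81.6 against 141 ± 13.8 CPM, SD, n = 4 each) also belong to the 10 genes with the largest increase at these levels.

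Gbp2b, an interferon-induced guanylate-binding protein, came next after Kynu, at 121, 111, 106 and 197 CPM in the knockout and 18.9, 24.6, 24.8 and 18.8 CPM in the wild type (log2 fold change 2.62, standard error 0.26, adjusted p = 3.8e-09, edgeR). Replicate 4 was the highest of the knockout, and the groups did not overlap. The chemokine Ccl22 and the transcription factor Klf4 followed. Klf4, known for its part in macrophage polarization, was at 45.0, 45.2, 62.5 and 44.0 CPM in the knockout and 8.7, 10.1, 12.7 and 8.63 CPM in the wild type (log2 fold change 2.29, standard error 0.13, adjusted p = 4.4e-14, edgeR), and it was already higher before LPS (log2 fold change 0.99, adjusted p = 2.1e-06, edgeR). Ccl22, a ligand of the chemokine receptor CCR4 on T cells, was at 60.7, 53.1, 48.9 and 70.5 CPM in the knockout and 11.4, 13.7, 7.31 and 12.9 CPM in the wild type (log2 fold change 2.36, standard error 0.16, adjusted p = 1.9e-12, edgeR), again with a smaller difference at 0 h (log2 fold change 0.87). Sorbs3, which encodes the adhesion protein vinexin, was at 16.9, 17.1, 21.4 and 12.1 CPM in the knockout and 3.11, 3.43, 3.48 and 3.88 CPM in the wild type (log2 fold change 2.28, adjusted p = 5.6e-10, edgeR). For Klf4, Ccl22 and Sorbs3 the genotype difference was larger at 18 h than at 0 h (interaction adjusted p = 8e-06, 0.00021 and 0.044, edgeR).

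Among the genes with the largest decreases, Cd5l, a secreted protein of macrophages that LXR induces and that binds lipids and other ligands, was far lower. Its values were 26.2, 24.6, 21.9 and 17.4 CPM in the knockout and 514, 549, 482 and 531 CPM in the wild type (log2 fold change -4.53, standard error 0.14, adjusted p = 2e-20, edgeR), and the difference before LPS was as large (log2 fold change -4.43). Tgfbi, an extracellular matrix protein induced by TGF-beta, was at 65.4, 56.4, 58.9 and 55.3 CPM in the knockout and 283, 275, 270.1 and 321 CPM in the wild type. The log2 difference of Tgfbi was -2.28 (standard error 0.10, adjusted p = 2e-17, edgeR). Fcgr2b, the inhibitory Fc receptor for IgG, was at 96.7, 93.6, 88.1 and 100.0 CPM in the knockout and 408, 399, 389 and 396 CPM in the wild type. The log2 fold change was -2.07 (standard error 0.11, adjusted p = 2.5e-14, edgeR). The spread in each group was small beside the gap for both. In contrast to Cd5l, the decreases of Tgfbi and Fcgr2b were small before LPS, where their log2 fold changes were -0.30 (adjusted p = 0.033) and -0.13 (adjusted p = 0.46), and the interaction was far past the threshold (adjusted p = 8.5e-12 and 6e-10, all from edgeR).

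**Figure D2:**
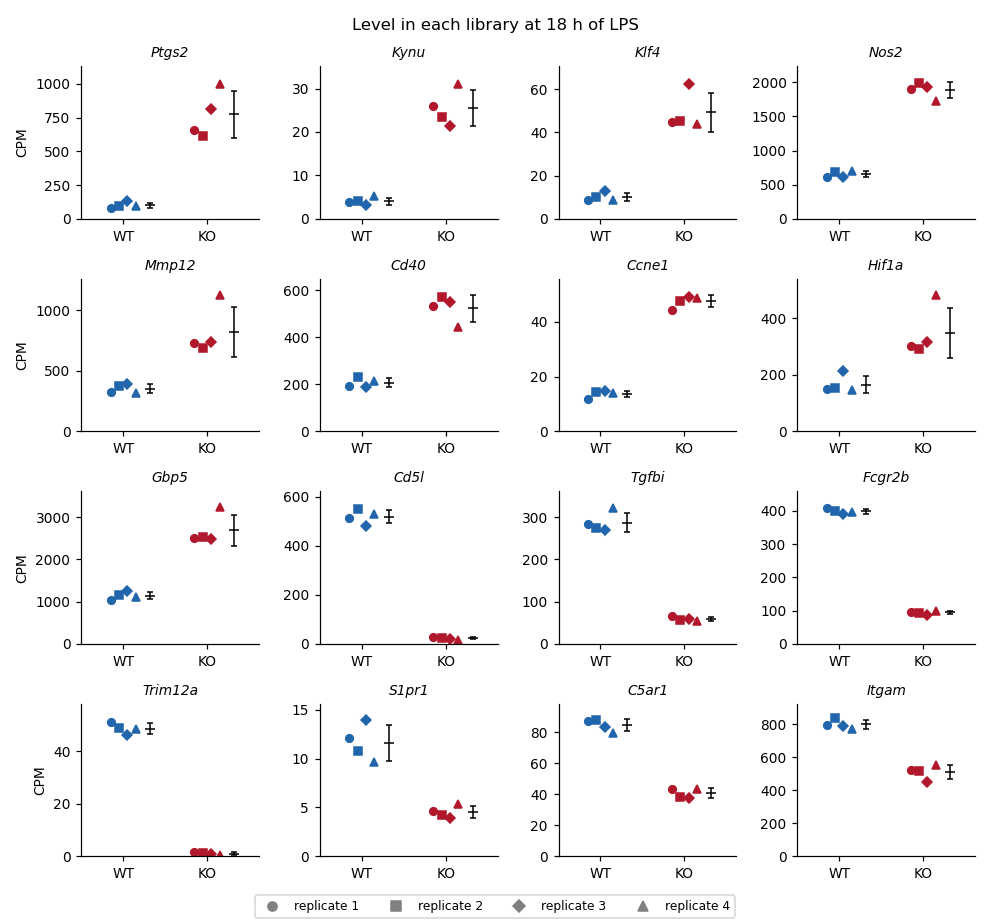
Levels in CPM (y axes, from 0) of 16 genes in each of the 4 BMDM-WT (blue) and 4 BMDM-Nur77-KO (red) libraries at 18 h, with a marker shape for each replicate and the mean ± SD at the right of each group. The groups do not overlap in any of the 16 panels, and among the 9 genes higher in BMDM-Nur77-KO its replicate 4 is the highest for Ptgs2, Kynu, Mmp12, Hif1a and Gbp5.

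The promoters of these genes were searched for letters of known binding sites, as a description of their sequence. Promoters are those of the RefSeq annotation of GRCm38.p6, from 250 bases before to 50 bases after the start, and 8929 of the 11279 genes tested have an entry, including 18 of the 20 genes with the largest changes. The NBRE (AAAGGTCA, either strand) was held by 0.972% of the promoters of tested genes, by 1.38% of those of higher genes and by 1.64% of those of lower genes. The AP-1 site (TGANTCA, either strand) was held by 5.26% of the promoters of tested genes, 9.83% of those of higher genes and 8.01% of those of lower genes. The letters TATAAA were held by 7.24%, 13.5% and 7.8%. Over all 32851 promoters of the annotation these shares were 1.51%, 7.81% and 13.6%. Among genes that wild-type cells induced at 1 or 5 h, the AP-1 site was held by 10.1% of the promoters of those higher in the knockout at 18 h and by 7.33% of the others, and TATAAA by 14.1% and 9.44%. Where TATAAA runs into an NBRE, the motifs share 3 letters (AAA). Of the 18 genes with an entry, 4 hold an NBRE or an AP-1 site in this window, and their promoters are printed because they are the cases among the largest changes where either element occurs (5′ to 3′ on the strand of the gene, element in capitals).
Il6, chr5:30012864-30013163, + strand, AP-1 site starting 249 bases before the start: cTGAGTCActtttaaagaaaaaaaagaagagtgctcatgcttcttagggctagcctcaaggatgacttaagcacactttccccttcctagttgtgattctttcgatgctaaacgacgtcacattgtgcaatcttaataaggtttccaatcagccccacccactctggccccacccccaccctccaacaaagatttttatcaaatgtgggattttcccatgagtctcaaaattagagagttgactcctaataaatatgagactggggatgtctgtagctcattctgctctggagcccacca
Il1a, chr2:129309923-129310222, - strand, AP-1 site starting 12 bases before the start: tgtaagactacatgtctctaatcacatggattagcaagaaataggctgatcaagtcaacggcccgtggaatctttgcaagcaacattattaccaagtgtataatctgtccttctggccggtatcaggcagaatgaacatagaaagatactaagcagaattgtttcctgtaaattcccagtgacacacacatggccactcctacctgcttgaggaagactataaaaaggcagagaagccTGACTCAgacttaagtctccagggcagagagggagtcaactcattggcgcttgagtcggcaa
Gbp2b, chr3:142594597-142594896, + strand, AP-1 site starting 9 bases after the start: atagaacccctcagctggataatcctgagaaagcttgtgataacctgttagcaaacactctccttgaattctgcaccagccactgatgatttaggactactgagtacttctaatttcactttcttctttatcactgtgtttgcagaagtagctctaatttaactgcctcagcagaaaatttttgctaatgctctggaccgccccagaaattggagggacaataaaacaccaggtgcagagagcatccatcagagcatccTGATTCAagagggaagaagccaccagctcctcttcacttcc
Trim30b, chr7:104358597-104358896, - strand, NBRE starting 244 bases before the start: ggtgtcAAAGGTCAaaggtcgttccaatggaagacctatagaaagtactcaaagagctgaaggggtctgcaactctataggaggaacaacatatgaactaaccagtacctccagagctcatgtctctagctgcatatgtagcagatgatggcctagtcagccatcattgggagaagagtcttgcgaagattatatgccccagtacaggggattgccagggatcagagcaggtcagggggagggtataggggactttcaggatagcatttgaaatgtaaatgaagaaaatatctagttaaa
Il6, Il1a and Gbp2b were higher in BMDM-Nur77-KO and Trim30b was lower. A match is only a run of letters, and binding was not measured in these libraries.

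The genotype difference at 18 h followed how a gene responds to LPS early in wild-type cells. Classes were made from the BMDM-WT libraries at 0, 1 and 5 h, which are not among the libraries compared at 18 h. With limits of 0.05 on the adjusted p and of 1 on the log2 fold change, 387 genes (3.43%) were induced at 1 h and 1769 (15.7%) at 5 h, while 2034 (18%) were reduced at 5 h. Of the 276 genes induced at both times, 105 (38.0%) were higher in BMDM-Nur77-KO at 18 h and 6 (2.17%) were lower, with a median log2 fold change of 0.50. Of the 1493 genes induced at 5 h only, 319 (21.4%) were higher and 31 (2.08%) lower, and of the 111 induced at 1 h only, 28 (25.2%) were higher and 3 (2.70%) lower. Genes reduced at 5 h showed the opposite: 35 of 2001 (1.75%) were higher and 238 (11.9%) lower, with a median of -0.21. Genes in none of these classes were higher for 156 of 7398 (2.11%) and lower for 187 (2.53%). The classes did not separate in this way at 0 h, where their medians were between -0.09 and 0.04. Genes that LPS raises in wild-type cells thus stood higher in the knockout at 18 h and genes that it reduces stood lower, without any class being uniform.

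**Figure D3:**
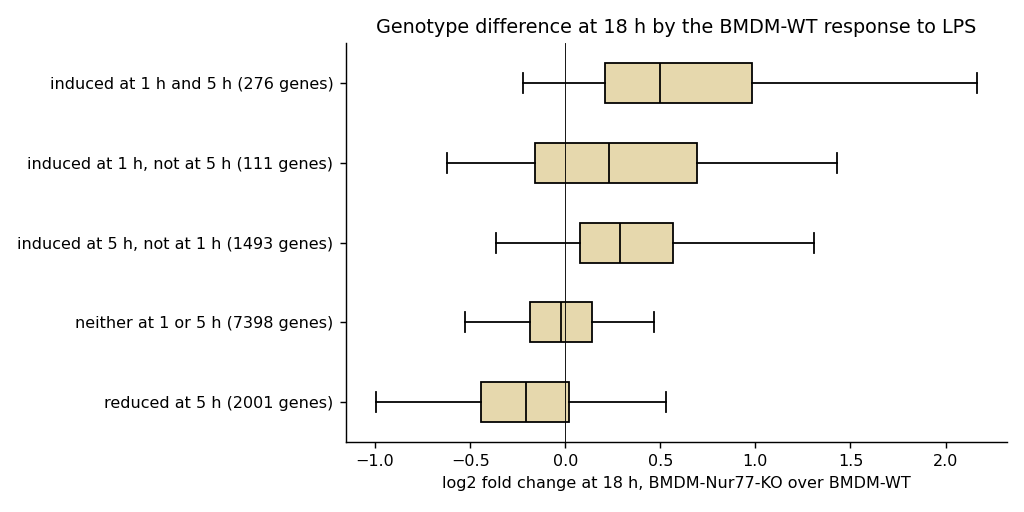
Log2 fold change at 18 h of BMDM-Nur77-KO over BMDM-WT (x axis) for 5 classes of genes by the BMDM-WT response at 1 h and 5 h. Boxes span the 25th to the 75th percentile with the median as a line, and whiskers the 5th to the 95th; the class induced at both times is centred at 0.50 and the class reduced at 5 h at -0.21.

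The other genes were read in 37 lists of pathways, of which cytokines (13 of 19 tested genes higher, none lower, median log2 fold change 0.99) had the highest share of higher genes. That rank held with all libraries in 1 model, but in the 8 libraries alone 10 of 14 GTPases of the GBP and IRG list were higher against 12 of 19 cytokines, and without the 2 deviating libraries 11 of 17 matrix genes against 12 of 19. The lists of chemokines, GTPases and cytokines also had the lowest median GC content of the 37 (45.1%, 45.2% and 45.8%). With the trend on GC content removed from each library, 7, 9 and 13 of their genes were higher, as many as before. The higher cytokines included, besides Il6 and Il1a, Csf1, the growth factor of macrophages (164 ± 14.8 against 82.5 ± 1.5 CPM, log2 fold change 0.99), Il18 (0.98) and Il15 (0.86). Il12a had 2 to 3 counts in each wild-type library against 40 to 58 in the knockout (log2 fold change 4.11, standard error 0.34, edgeR). Set against 3 counts per wild-type library, the knockout mean was 13.5-fold higher. That figure has no interval and does not cover counting error. Csf2 was called as well (log2 fold change 2.14), but not without replicate 4 of BMDM-Nur77-KO (1.68, adjusted p = 0.19, edgeR) or in 4 others of the 8 fits without 1 library. Among chemokines 7 of 19 were higher and 1 lower. The call of Cxcl9 (1.11) was lost without replicate 4 of BMDM-Nur77-KO (0.86, adjusted p = 0.098, edgeR) and in 3 others of these fits. Ccl3 (469 ± 42.0 against 155 ± 8.37 CPM, log2 fold change 1.60) and Cxcl2 (20.7 ± 1.69 against 7.09 ± 0.756 CPM, log2 fold change 1.55), which attract monocytes and neutrophils, were higher, whereas the monocyte chemokines Ccl2 (log2 fold change 0.24, adjusted p = 0.19, edgeR) and Ccl5 (0.13, adjusted p = 0.64, edgeR) were not called. Without the 2 deviating libraries the higher genes were 12 of the 19 cytokines, 6 of the 19 chemokines, 11 of 17 matrix genes, 9 of 23 NF-kB pathway genes, 4 of 12 class II genes, 7 of 14 GTPases and 6 of 20 interferon-stimulated genes, and 5 of 20 cholesterol synthesis genes were lower.

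**Figure D4:**
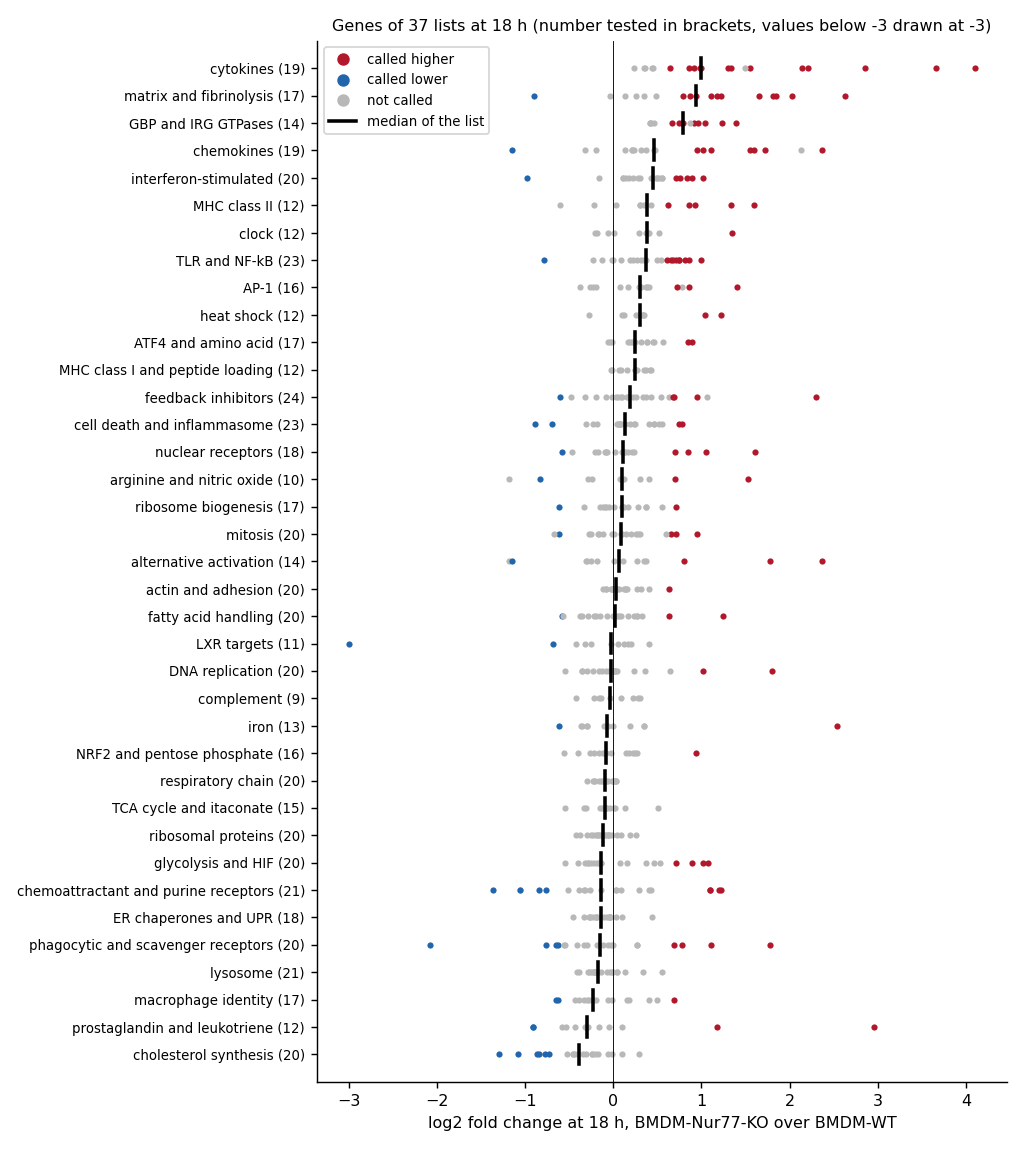
Log2 fold change at 18 h of BMDM-Nur77-KO over BMDM-WT (x axis) for each tested gene of 37 lists (rows, with the number tested), red where called higher, blue where called lower and grey otherwise, with the median of each list as a black bar. The lists are ordered by their median, from cytokines at 0.99 to cholesterol synthesis at -0.39, and the respiratory chain, ribosomal proteins and lysosome have no coloured point.

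Enzymes and inhibitors of matrix turnover and clotting formed the list with the next highest median. Of 17 tested genes, 11 were higher and 1 was lower (median log2 fold change 0.93). Mmp12, the macrophage metalloelastase, was at 726, 688, 735 and 1126 CPM in the knockout and 325, 374, 391 and 313 CPM in the wild type. The groups did not overlap, and replicate 4 stood above the rest of the knockout. On the log2 scale the difference was 1.22 (standard error 0.14, adjusted p = 5.4e-08, edgeR). The urokinase receptor Plaur was higher too (26.9 ± 4.05 against 12.5 ± 0.827 CPM, log2 fold change 1.10), as were the matrix metalloproteinases Mmp9 (1.18) and Mmp13 (0.87), the inhibitor Timp1 (0.79), the matrix protein Thbs1 (744 ± 56.2 against 389.8 ± 37.5 CPM, 0.93) and fibronectin, Fn1 (8.48 ± 1.22 against 2.41 ± 0.474 CPM, 1.81). The exception was Adam8, a membrane metalloproteinase, at 295, 304, 325 and 286 CPM in the knockout and 550.3, 666, 489 and 544 CPM in the wild type. Adam8 differed by -0.89 on the log2 scale (standard error 0.10, adjusted p = 3.8e-08, edgeR). Before LPS, 7 of the 17 were already higher, among them Mmp9 (1.38), Mmp12 (1.42) and Fn1 (2.48), whereas Thbs1 was lower (-0.87). F3 and Serpinb2, also called higher, were under 4 CPM in both groups, and F3 lost its call without replicate 4 of either genotype (1.57, adjusted p = 0.092, edgeR, without that of BMDM-Nur77-KO).

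Of 12 tested genes of prostaglandin and leukotriene metabolism, 2 were higher and 2 lower. Besides Ptgs2, the phospholipase Pla2g4a, which releases arachidonate from membranes, was higher, at 222, 205, 199 and 228 CPM in the knockout and 93.7, 91.3, 108 and 83.6 CPM in the wild type. Its log2 fold change was 1.18 (standard error 0.09, adjusted p = 8.1e-12, edgeR). Alox5ap, the protein that presents arachidonate to 5-lipoxygenase for leukotriene synthesis, was lower, at 43.9, 41.5, 43.2 and 44.4 CPM in the knockout and 82.5, 86.0, 71.0 and 86.7 CPM in the wild type (log2 fold change -0.91, standard error 0.09, adjusted p = 7.2e-09, edgeR), and so was the prostaglandin receptor Ptger2 (7.72 ± 1.21 against 14.5 ± 1.48 CPM, log2 fold change -0.91). None of these 4 genes overlapped between the genotypes. The prostaglandin E synthase Ptges was at a log2 fold change of -0.05 (adjusted p = 0.77, edgeR), and it was among the 8 genes of the list not called.

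Genes around arginine differed in both directions. Nos2, the inducible nitric oxide synthase, was at 1897, 1989, 1925 and 1722 CPM in the knockout and 616, 691, 617 and 695 CPM in the wild type. The log2 difference of Nos2 was 1.52 (standard error 0.15, adjusted p = 2.1e-09, edgeR). Slc7a2, the transporter that brings arginine into activated macrophages, was higher (575 ± 66.8 against 354 ± 50.9 CPM, log2 fold change 0.70), although it had been lower before LPS (log2 fold change -0.69, adjusted p = 0.0041, edgeR). Ass1, which remakes arginine from citrulline, was lower, at 69.6, 67.4, 64.2 and 56.5 CPM in the knockout and 109, 122, 108 and 119.7 CPM in the wild type. The log2 fold change was -0.83 (standard error 0.13, adjusted p = 1.1e-05, edgeR). Arg1, the arginase that competes for the same substrate, had a log2 fold change of -1.18 that did not pass (adjusted p = 0.25, edgeR). The other 6 genes of the 10 tested were not called.

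In the Toll-like receptor and NF-kB pathway, 9 of 23 genes were higher and 1 was lower (median log2 fold change 0.37). The higher genes were subunits, Nfkb1 (0.75), Nfkb2 (356 ± 80.9 against 179 ± 9.24 CPM, 0.99) and Rel (0.75), and regulators of the pathway, Nfkbib (0.86), Nfkbie (0.67), Nfkbiz (0.66), Tnfaip3 (362 ± 7.81 against 206 ± 13.9 CPM, 0.81), Tnip1 (0.61) and Tnip3 (0.71). The call of Tnip3 rested on replicate 4 of BMDM-Nur77-KO (log2 fold change 0.51 without it, under the limit). The receptor side was not called, with log2 fold changes of 0.00 for Tlr4, -0.01 for Cd14 and -0.13 for Myd88, apart from the kinase Irak4, which was lower, at 30.5, 26.3, 28.2 and 28.6 CPM in the knockout and 50.2, 50.1, 46.3 and 49.0 CPM in the wild type. On the log2 scale the difference was -0.78 (standard error 0.08, adjusted p = 2.1e-08, edgeR). Its log2 fold change at 0 h was -0.57.

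Of 16 AP-1 genes, 3 were higher, the small Maf protein gene Maff (4.69 ± 1.43 against 1.75 ± 0.351 CPM, log2 fold change 1.41), Batf2 (53.9 ± 10.8 against 29.7 ± 3.12 CPM, 0.86) and Batf (91.2 ± 5.31 against 55.3 ± 6.04 CPM, 0.72), and none was lower (median log2 fold change 0.31). Of 24 genes in a list of feedback inhibitors of cytokine signalling, 4 were higher and 1 lower. The list also holds receptors, signal transducers and transcription factors, among them Klf4, Stat3 and Klf6. Klf4 had by far the largest value, and Socs1 was the other called gene besides those given next, losing its call without replicate 3 of either genotype or replicate 1 of BMDM-WT. Stat3 was at 474 ± 37.7 against 296 ± 15.5 CPM (log2 fold change 0.68, adjusted p = 2.4e-07, edgeR). Klf6 (log2 fold change 0.68) was not over the limit without replicate 4 of BMDM-Nur77-KO (0.53). The mRNA-destabilizing Zfp36l1 was lower with a log2 fold change of -0.60, close to the limit, and its call was lost without replicate 1, 2 or 3 of BMDM-Nur77-KO and without replicate 1 or 3 of BMDM-WT (log2 fold changes without 1 library between -0.52 and -0.76).

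Costimulatory genes and the regulator of MHC class II were higher. Of the 12 genes of the class II list, 5 were higher and none lower (median log2 fold change 0.39). Cd40, which receives T cell help, was at 532, 569, 552 and 442 CPM in the knockout and 193, 232, 188 and 216 CPM in the wild type. Cd40 differed by 1.34 on the log2 scale (standard error 0.12, adjusted p = 7.6e-10, edgeR). Ciita, the master regulator of class II transcription, was at 10.8, 15.2, 17.7 and 10.2 CPM in the knockout and 4.39, 4.48, 3.92 and 5.01 CPM in the wild type. Its log2 fold change was 1.60 (standard error 0.23, adjusted p = 3.1e-06, edgeR). Cd86 (335 ± 61.8 against 177 ± 17.8 CPM, log2 fold change 0.92) and the inhibitory ligand Cd274, also known as PD-L1 (4816 ± 779.9 against 2661 ± 205 CPM, 0.86), were higher as well. The call of Cd80 (0.62) was lost without replicate 4 of BMDM-Nur77-KO (0.52) and without replicate 1 of BMDM-WT. The class II chains themselves were not called, at log2 fold changes of 0.35 for H2-Aa, 0.30 for H2-Ab1 and 0.43 for the invariant chain Cd74 (adjusted p = 0.11, 0.19 and 0.048, edgeR). None of the 12 genes of class I presentation was called.

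The interferon-driven GTPases changed direction between rest and the late phase. All 14 guanylate-binding proteins and immunity-related GTPases tested, which attack the vacuoles of intracellular pathogens, had KO values above the WT ones at 18 h, and 9 were called higher (median log2 fold change 0.79). Gbp5 stood at 2506, 2527, 2473 and 3229 CPM in the knockout and 1042, 1153, 1259 and 1119 CPM in the wild type. The log2 difference of Gbp5 was 1.23 (standard error 0.18, adjusted p = 4.5e-06, edgeR). Gbp4 was at 821 ± 122 against 313 ± 30.9 CPM (log2 fold change 1.39), Gbp3 at 1630.0 ± 277 against 835 ± 86.4 CPM (0.97) and Gbp2 at 6707 ± 1459 against 3570.0 ± 282 CPM (0.91). Before LPS the same list had a median of -0.92 with 7 genes lower and none higher, and the log2 fold change was -1.48 for Gbp5 (adjusted p = 3e-05, edgeR) and -1.48 for Gbp2. The difference between the time points passed the threshold for all 14 (edgeR interaction, adjusted p under 0.05). Without replicate 4 of BMDM-Nur77-KO, which had the highest Gbp5 value, 6 of the 14 were called, and Gbp7, Gbp8 and Gbp9 were not (log2 fold changes 0.58, 0.59 and 0.51, adjusted p = 0.09, 0.11 and 0.1, edgeR). These 3 also lost their calls without replicate 1 of BMDM-WT, and Gbp8 and Gbp9 without its replicate 4, Gbp8 also without its replicate 2. Reads of these neighbouring and similar genes can be hard to assign, among Gbp2 and Gbp2b and between Tgtp1 and Tgtp2 in particular.

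Interferon-stimulated genes outside that family followed the same course with smaller values. Of 20, 5 were higher and 1 lower at 18 h (median log2 fold change 0.45), against 8 lower and none higher at 0 h (median -0.57), and 16 passed the interaction test. Cxcl10, a chemokine for activated T cells, was at 2753, 2568, 2865 and 2829 CPM in the knockout and 1282, 1408, 1443 and 1327 CPM in the wild type (log2 fold change 1.01, standard error 0.08, adjusted p = 7.6e-11, edgeR), after a log2 fold change of -1.27 at 0 h (adjusted p = 1.3e-08, edgeR). The RNA sensors diverged. Ifih1, which encodes MDA5, was higher (1177 ± 243 against 632 ± 125 CPM, log2 fold change 0.90). Ddx58, which encodes RIG-I, was lower, at 371, 393, 391 and 447 CPM in the knockout and 748, 792, 864 and 742 CPM in the wild type (log2 fold change -0.97, standard error 0.10, adjusted p = 3.2e-09, edgeR), and was lower still at 0 h (log2 fold change -1.97).

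**Figure D5:**
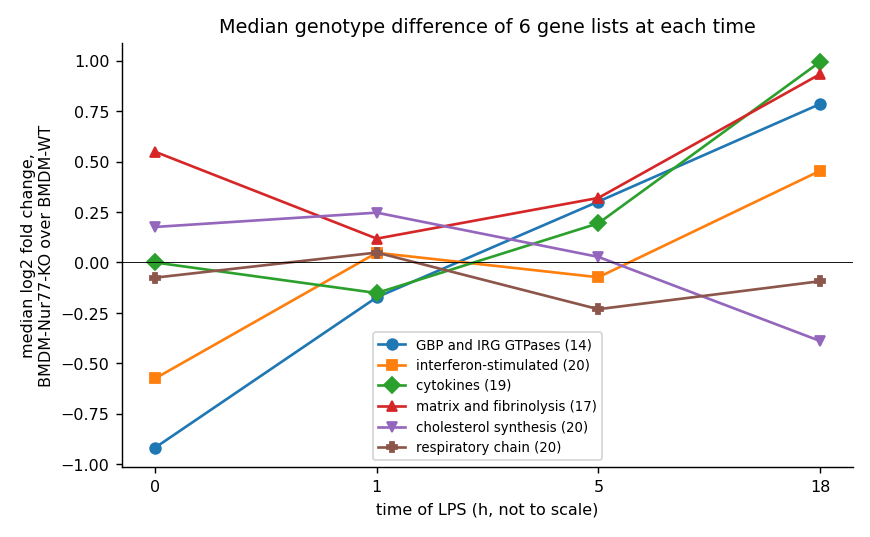
Median log2 fold change of BMDM-Nur77-KO over BMDM-WT (y axis) of 6 gene lists at 0, 1, 5 and 18 h of LPS (x axis, not to scale), with the number of genes tested in brackets. The GBP and IRG GTPases go from -0.92 at 0 h to 0.79 at 18 h, cholesterol synthesis from 0.18 to -0.39, and the respiratory chain is at -0.09 at 18 h.

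Cholesterol synthesis was the list with the most genes lower, although without the 2 deviating libraries the phagocytic and scavenger receptors had as many, 5 of 20. Of 20 tested genes, 6 were lower and none higher (median log2 fold change -0.39), against 1 higher and none lower at 0 h (median 0.18). Scd2, a fatty acid desaturase under the same SREBP control, was at 150.0, 138, 112 and 152 CPM in the knockout and 321, 286, 279 and 279 CPM in the wild type (log2 fold change -1.08, standard error 0.10, adjusted p = 1.5e-09, edgeR), after a log2 fold change of 0.44 at 0 h (interaction adjusted p = 1.1e-08, edgeR). Dhcr7 (7.45 ± 1.58 against 13.3 ± 1.04 CPM, log2 fold change -0.84), Fdps (8.89 ± 0.949 against 16.1 ± 2.08 CPM, -0.86) and Sqle (12.2 ± 1 against 20.8 ± 1.45 CPM, -0.78) were lower too, and Mvk was called (log2 fold change -0.73) but kept its call only without replicate 3 of either genotype among the 8 fits without 1 library (log2 fold changes between -0.58 and -0.86, and -0.62 without replicate 4 of BMDM-Nur77-KO). The cholesterol exporters Abca1 (0.06) and Abcg1 (0.20) were not called. Of 11 LXR targets 2 were lower, where Cd5l was joined by Pltp, the phospholipid transfer protein (510.3 ± 102 against 822 ± 75.8 CPM, log2 fold change -0.69, or -0.55 and under the limit without replicate 4 of BMDM-Nur77-KO).

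In the list of glycolysis and HIF, 4 of 20 tested genes were higher and none lower. Hif1a, the transcription factor that drives glycolysis in activated macrophages, was at 303, 292, 315 and 482 CPM in the knockout and 148, 154, 212 and 146 CPM in the wild type. On the log2 scale the difference was 1.07 (standard error 0.17, adjusted p = 9.6e-06, edgeR). Pfkfb3, which makes the activator of phosphofructokinase, was at 689, 691, 646 and 653 CPM in the knockout and 326, 338, 331 and 326 CPM in the wild type. Pfkfb3 differed by 1.02 on the log2 scale (standard error 0.07, adjusted p = 9.4e-13, edgeR). Vegfa (206 ± 17.6 against 111 ± 13.1 CPM, log2 fold change 0.90) and Pfkp, a phosphofructokinase of glycolysis itself (143 ± 8.53 against 87.5 ± 4.65 CPM, 0.71), were the other 2 genes called. The log2 fold changes of Ldha, Pkm, Aldoa and Gapdh were -0.14, -0.22, -0.29 and -0.14, none of them called, and the median of the list was -0.14. None of 20 respiratory chain genes (log2 fold changes of -0.30 to 0.03), 15 genes of the TCA cycle and itaconate, 20 ribosomal protein genes, 18 chaperone and unfolded protein genes, 21 lysosomal genes or 9 complement genes was called. Acod1, which makes itaconate, was at a log2 fold change of 0.50 (adjusted p = 0.0083, edgeR), below the limit of 0.58. Acsl1, an acyl-CoA synthetase induced by LPS, was higher (2176 ± 66.9 against 1408 ± 134 CPM, log2 fold change 0.63, against -0.43 at 0 h). In amino acid and redox metabolism, Psat1, an enzyme of serine synthesis (93.3 ± 2.86 against 51.9 ± 3.72 CPM, 0.85), and Slc7a11, the cystine importer (70.7 ± 8.28 against 37.0 ± 14.3 CPM, 0.93, and 1.51 at 0 h), were higher. Dgat2 (2.77 ± 0.539 against 1.17 ± 0.355 CPM, 1.24), which makes triglycerides, was the other gene of the fatty acid list called higher, and Chac1 the other of the ATF4 list (0.89, under 3 CPM in both groups, and lost in 4 of the 8 fits without 1 library).

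Receptors for chemoattractants and purines were called 4 times in each direction among 21. S1pr1, the sphingosine 1-phosphate receptor, was at 4.66, 4.19, 3.93 and 5.32 CPM in the knockout and 12.1, 10.8, 13.9 and 9.67 CPM in the wild type. Its log2 fold change was -1.36 (standard error 0.13, adjusted p = 3.2e-09, edgeR). C5ar1, the receptor of complement C5a, was at 43.5, 38.4, 37.4 and 43.5 CPM in the knockout and 87.5, 87.9, 83.5 and 79.6 CPM in the wild type. The log2 difference of C5ar1 was -1.06 (standard error 0.07, adjusted p = 7.6e-13, edgeR). The groups were far apart for both, and for both the difference was larger than at 0 h (interaction adjusted p = 4.1e-05 and 1.5e-06, edgeR). Ccr2 (5.5 ± 1.63 against 9.92 ± 1.99 CPM, log2 fold change -0.85, and 0.84 at 0 h, where it was higher) and Cxcr4 (6.15 ± 1.21 against 10.5 ± 1.6 CPM, -0.77) were also lower. Higher were the adenosine receptor Adora2a (56.6 ± 12.2 against 26.4 ± 2.62 CPM, log2 fold change 1.10), the purine receptors P2ry12 (1.22) and P2ry13 (1.09) and the hydroxybutyrate receptor Hcar2 (13.2 ± 1.79 against 5.77 ± 1.32 CPM, 1.20).

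Phagocytic receptors were divided in the same way, with 4 higher and 4 lower of 20. Clec7a, which encodes the beta-glucan receptor dectin-1, was at 293, 259.7, 290.0 and 455 CPM in the knockout and 144, 143, 184 and 129 CPM in the wild type. The log2 fold change was 1.11 (standard error 0.16, adjusted p = 2.3e-06, edgeR). Marco (121 ± 13.1 against 70.4 ± 9.21 CPM, log2 fold change 0.78) and Mertk, a receptor for apoptotic cells (514 ± 53.5 against 318 ± 10.6 CPM, 0.69), were higher, and Timd4 (3.04 ± 0.65 against 0.877 ± 0.147 CPM) was higher at a low level. Besides Fcgr2b, the integrin chain Itgam was lower, at 523, 515, 454 and 556 CPM in the knockout and 798, 837, 791 and 775 CPM in the wild type. On the log2 scale the difference was -0.64 (standard error 0.06, adjusted p = 1.5e-09, edgeR). Stab1 (-0.76) was called lower only with replicate 4 of BMDM-Nur77-KO (-0.56 without it), and Fcgr3 (-0.63) was called except without replicate 3 of BMDM-Nur77-KO (-0.57). Fcgr2b and Fcgr3 are similar in sequence, and their reads can be hard to assign.

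The markers of the macrophage lineage were present in both genotypes. Their log2 fold changes were all negative, from -0.64 to -0.06 with a median of -0.28. For 6 of the 7 all knockout values lay below the wild-type ones, against 10.2% of all tested genes. The 7 markers summed to 15250 to 17100 CPM in the knockout and 19370 to 20010 CPM in the wild type. Of 7 marker genes, 2 were called lower, Itgam and Csf1r, the receptor of the growth factor that keeps these cells alive, at 814, 824, 797 and 549 CPM in the knockout and 1156, 1095, 1103 and 1240.0 CPM in the wild type. Csf1r differed by -0.62 on the log2 scale (standard error 0.13, adjusted p = 0.00086, edgeR). Replicate 4 was the lowest of the knockout libraries for Csf1r, and without it the log2 fold change was -0.50, under the limit. Adgre1, which encodes F4/80, was at 2878 ± 514 against 3775 ± 100.2 CPM (log2 fold change -0.39, adjusted p = 0.015, edgeR), and Cd68 and Lyz2 at -0.06 and -0.24. Markers of other cells were scarce in both genotypes. Elane, Hbb-bs and Fcer1a were at 0 in all 8 libraries, Mpo, Ly6g, Col1a1, Lum and Flt3 at 0 in most, and S100a8 at 6.24 to 11.1 CPM in both genotypes together. No gene of the fibroblast and erythroid lists passed the filter, and the 5 neutrophil genes and 1 B cell gene that did were not called. The exception was Clec9a, a receptor known from dendritic cells, at 11.0, 10.9, 10.2 and 16.4 CPM in the knockout and 3.2, 4.19, 4 and 2.68 CPM in the wild type (log2 fold change 1.79, standard error 0.21, adjusted p = 8.1e-08, edgeR), while the dendritic cell markers Flt3, Siglech and Zbtb46 were at most 0.448 CPM. The 5 dendritic cell markers summed to 13.5 to 21.8 CPM in the knockout and 5.18 to 7.14 CPM in the wild type. Of these, Clec9a and Xcr1, passed the filter and were higher, but Xcr1 not without replicate 4 of BMDM-Nur77-KO (0.77, adjusted p = 0.055, edgeR) or replicate 2 of BMDM-WT. The T cell gene Cd28 (5.96 ± 0.603 against 10.3 ± 1.52 CPM, log2 fold change -0.79) was lower, with Cd3d, Cd3e and Cd3g at most 0.435 CPM. Lck, the other T cell gene tested, was at 2.33, 2.67, 1.82 and 1.64 CPM in the knockout and 1.28, 1.14, 1.48 and 1.21 CPM in the wild type, with every knockout library above the wild type (log2 fold change 0.71, adjusted p = 0.06, edgeR, not called), and it was called higher without replicate 4 of BMDM-Nur77-KO. Hdc (31.9 ± 5.86 against 21.0 ± 1.33 CPM, 0.60), the only tested gene of the mast cell and basophil list, was higher but lost its call without replicate 1, 2 or 3 of BMDM-Nur77-KO or replicate 1 of BMDM-WT. The part of other cell types in the results was not tested.

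Of 20 DNA replication genes 2 were higher and none lower, and of 20 mitotic genes 3 were higher and 1 lower. Over all tested genes 5.7% were higher and 4.12% lower. The median log2 fold changes of these 2 lists were -0.03 and 0.09. At 0 h the medians were -0.35 and -0.34, with 2 and 4 genes lower and none higher. Ccne1, the cyclin that drives entry into DNA synthesis, was at 44.4, 47.8, 49.1 and 48.8 CPM in the knockout and 11.9, 14.3, 14.6 and 14.0 CPM in the wild type (log2 fold change 1.79, standard error 0.11, adjusted p = 1.4e-13, edgeR), with no call at 0 h (log2 fold change -0.26, interaction adjusted p = 1.2e-10, edgeR). Apart from Tyms, which was at 1.89 ± 0.401 against 0.929 ± 0.322 CPM, the other 18 DNA replication genes were not called, and Mcm2 to Mcm7 had log2 fold changes between -0.35 and 0.02. Of 20 mitotic genes, Tpx2 (295 ± 69.1 against 152 ± 16.6 CPM, log2 fold change 0.95), Mki67 (0.71) and Birc5 (0.66) were higher and Cdk1 (5.91 ± 0.585 against 9.06 ± 0.855 CPM, -0.62) was lower. Mki67 and Birc5 lost their calls without replicate 4 of BMDM-Nur77-KO (0.45 and 0.51), Mki67 also without replicate 1 of BMDM-WT and Birc5 also without replicate 2 or 3 of BMDM-WT. The call of Cdk1 was lost without replicate 2 or 3 of BMDM-Nur77-KO or replicate 1 of BMDM-WT (log2 fold changes down to -0.57).

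Of 17 genes of macrophage identity, Mertk was higher and Csf1r and Itgam were lower (median log2 fold change -0.23). All knockout values lay below the wild-type ones for 9 of the 17 and above them for 3. In cell death, the caspase of the noncanonical inflammasome, Casp4, was higher (335 ± 66.4 against 195 ± 11.3 CPM, log2 fold change 0.78), as was the caspase-8 inhibitor Cflar (1604 ± 261 against 956 ± 118 CPM, 0.75). Bcl2l11, which encodes the pro-apoptotic protein BIM, was lower, at 53.9, 49.6, 52.4 and 41.5 CPM in the knockout and 94.0, 85.5, 92.8 and 93.4 CPM in the wild type (log2 fold change -0.89, standard error 0.10, adjusted p = 1.8e-08, edgeR), and so was Pycard, the inflammasome adaptor ASC (27.9 ± 1.26 against 45.2 ± 6.13 CPM, -0.70). The other 19 of 23 genes were not called, Nlrp3 (0.41) and Casp1 (0.46) among them. The heat shock genes Hspa1a (40.6 ± 4.46 against 19.7 ± 2 CPM, log2 fold change 1.04) and Hspa1b (44.4 ± 2.47 against 19.1 ± 0.771 CPM, 1.22), near-identical copies whose reads can be hard to assign, were the 2 of 12 that were higher. Of the clock genes, 1 of 12 was called, the repressor Bhlhe40 at 21.1, 21.2, 24.0 and 22.6 CPM in the knockout and 8.51, 9.34, 8.01 and 9.15 CPM in the wild type (log2 fold change 1.35, standard error 0.11, adjusted p = 1.7e-10, edgeR), which was higher at 0 h as well (log2 fold change 1.13). Of 18 nuclear receptor genes 4 were higher and 1 lower, which were, besides Nr4a2 and Nr4a3, Nr3c1, the glucocorticoid receptor (253 ± 31.5 against 156 ± 32.7 CPM, 0.70), Rora (23.8 ± 4.67 against 13.2 ± 3.07 CPM, 0.84) and, lower, Pparg (-0.58), whose call was lost without replicate 1 or 3 of BMDM-Nur77-KO and without replicate 2 or 3 of BMDM-WT (log2 fold changes between -0.48 and -0.66). Of 17 genes of ribosome biogenesis Myc was higher and Polr1b lower, of 13 iron genes Hamp was higher and Steap3 lower, and of 14 genes of alternative activation Irf4, Egr2 and Ccl22 were higher and Ccl24 lower, all but Ccl22 and Steap3 under 10 CPM in both groups. Among the 8 fits without 1 library the calls of Myc and Egr2 were lost in 6 each and that of Ccl24 in 5. Without replicate 4 of BMDM-Nur77-KO the log2 fold changes were 0.48 for Myc, 0.75 for Egr2, -0.57 for Polr1b and -0.57 for Steap3, none of them called. The call of Polr1b was also lost without replicate 3 or 4 of BMDM-WT, and that of Steap3 without its replicate 1. Of the actin and adhesion list, Icam1 (796 ± 61.9 against 515 ± 27.0 CPM, 0.63) was the only one of 20 called.

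Some of the largest differences lay next to each other in the genome (mm10, the build of the deposited counts). In windows of 5 Mb with at least 10 tested genes, the median window had 8.70% of its genes called, against 9.82% of all tested genes. The 3 windows with the highest share were chr3:40-45 Mb, with 6 of 10 genes higher, chr8:40-45 Mb, with 5 of 12 higher and 1 lower, and chr3:140-145 Mb, with 6 of 14 higher, 4 of them GBP genes other than Gbp2b. In the first, Intu, a planar polarity effector, was at 28.7, 35.8, 33.4 and 32.7 CPM in the knockout and 9.34, 10.2, 12.9 and 11.3 CPM in the wild type (log2 fold change 1.58, standard error 0.11, adjusted p = 5.1e-12, edgeR), and its neighbours Larp1b (29.7 ± 6.32 against 10.7 ± 1.19 CPM, log2 fold change 1.48) and Abhd18 (7.51 ± 1.14 against 3.01 ± 0.194 CPM, 1.31) were higher too. None of the 6 was called at 0 h, and Intu, Larp1b and Abhd18 had log2 fold changes of 0.04, 0.07 and -0.10 there. In the second, Mtus1 was at 56.2 ± 11.0 against 15.6 ± 2.22 CPM (log2 fold change 1.85) and the palmitoyltransferase Zdhhc2 at 2.86 ± 0.305 against 11.6 ± 2.99 CPM (-2.01, and -3.89 at 0 h). B430010I23Rik lies within the span of Mtus1, and without knowledge of the strand used in counting their reads cannot be told apart.

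Another cluster was present before LPS. On chromosome 1 from 170 to 175 Mb, 28 of 67 tested genes were called at 18 h, 9 higher and 19 lower, and 18 of them had the same call at 0 h. Over all genes called at 18 h, 18.3% had the same call at 0 h. Ifi202b, an interferon-inducible DNA-binding gene of this cluster, was at 1346, 1136, 1299 and 2193 CPM in the knockout and 0.366, 0.191, 0.261 and 0 CPM in the wild type, and its fitted log2 fold change was 12.78 at 18 h and 13.50 at 0 h. Wild-type values were at or near 0 in all 4 libraries, so the size of the fitted value rests on a handful of counts. Its neighbours of the same family Ifi213 (30.7 ± 8.21 against 276 ± 20.0 CPM, log2 fold change -3.17), Ifi208 (81.4 ± 17.5 against 341 ± 30.1 CPM, -2.07), Ifi205 (-1.22) and Ifi211 (-1.37) were lower, whereas Ifi203 (1.00) and Ifi214 (1.87) were higher. These genes are similar in sequence, so their reads can be hard to assign. Of the SLAM family receptors in this window, Cd244a was lower (0.575 ± 0.183 against 6.32 ± 0.801 CPM, log2 fold change -3.44) and Slamf1 higher (40.9 ± 3.02 against 8.91 ± 0.509 CPM, 2.20), the latter after -1.88 at 0 h. In the same window Igsf9, an adhesion protein (3.75 ± 1.15 against 21.2 ± 6.49 CPM, log2 fold change -2.49), and Tagln2, an actin-binding protein (47.2 ± 7.2 against 161 ± 13.3 CPM, -1.77), were lower. Fcgr2b, described above, lies in it as well. The cause of the differences in this window was not tested.

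A second such group was on chromosome 7 near 104 Mb, where TRIM genes, antiviral ubiquitin ligases, lie side by side. Trim12a was at 1.52, 1.34, 0.841 and 0.655 CPM in the knockout and 51.1, 48.8, 45.9 and 48.4 CPM in the wild type (log2 fold change -5.49, standard error 0.23, adjusted p = 2.6e-17, edgeR), and its log2 fold change was -5.17 at 0 h. Trim30b was at 2.6, 1.96, 2.1 and 2.13 CPM in the knockout and 33.7, 35.1, 31.1 and 32.3 CPM in the wild type (log2 fold change -3.91, standard error 0.21, adjusted p = 1.1e-13, edgeR), with -4.57 at 0 h. Trim34a (24.5 ± 3.34 against 75.3 ± 9.34 CPM, log2 fold change -1.62) and Trim5 (1.32 ± 0.565 against 12.5 ± 1.22 CPM, -3.21) were lower, and Trim34b (17.2 ± 3.3 against 6.43 ± 2.33 CPM, 1.41) was higher. The cause of the differences in this group was not tested either. Around Nr4a1 itself, within 5 Mb on chromosome 15, 3 of 92 tested genes were higher and 9 lower, 13.0% in all. Of all tested genes 9.82% were called, 5.7% higher and 4.12% lower.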

How the data were processed

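RNA sequencing (mRNA, strand-specific libraries, paired reads) covered both genotypes before LPS and after 1, 5 and 18 h, with 4 samples per group, grouped by the labels. The authors aligned reads to mm10 with HISAT2 2.1.0, kept those with a mapping quality over 15 and counted tags per RefSeq transcript with HOMER; the labels also name CASAVA 1.8.2. The deposited values are expected counts, in which each mate adds 0.5 (28.6% of values are not whole), and were rounded here. Of 42361 transcripts, 93 unnamed ones (0.233% to 1.37% of tags per library) were left out, and 1 transcript per gene was kept, the one with the highest mean. Whether counting used strand is not given in the sources used here.

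Genes whose mean RPKM exceeded 1 in any group entered the test with edgeR 4.0.16 (R 4.3.3, TMM, quasi-likelihood, 1 model over all 32 libraries with a mean per group, Benjamini-Hochberg). On data simulated for this comparison over 11279 genes, 88% of changes of log2 1 and 98% of log2 2 were recovered, with 6 false calls. The simulated counts held no trend on GC content and no deviating library, so these rates do not cover such effects. Libraries held 11080625 to 15780926 counts at 18 h. Alternatives were DESeq2 1.42.0, its size factors, other filters and limits, the 8 libraries alone, a replicate block, each library left out and, chosen after seeing the data, removal of a trend on GC content and leaving out both deviating libraries. The genes named were the NR4A genes, the 10 largest changes each way among called genes at a mean of at least 10 CPM without overlap, up to 2 called members each way per list and up to 3 per top window. Other list members were named to give the rest of a list, and the neighbours named on chromosomes 1 and 7 and the genes of the marker lists were chosen after their values were seen. Members and lists were chosen with earlier results of these data known. Some genes are not reported here.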

Additional observations from a re-analysis of the deposited data

Results flagged for a closer look

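Among the genes named, 182 groups of 4 libraries at 18 h were searched for a library far from the other 3, by the gap to its nearest neighbour as a share of the whole range (Dixon's 95% criterion). There were 20 such cases. The criterion gives about 5% for independent groups, whereas these groups share libraries and their genes were chosen by their values. The count therefore cannot be compared with that share. The ratio of gap to range is given in brackets. For replicate 4 of BMDM-Nur77-KO this held for Gbp2b (0.841), Hif1a (0.878), Pltp (0.838), Tpx2 (0.874), Mki67 (0.851), Csf1r (0.901), Ccl24 (0.868), Gbp4 (0.832), Gbp5 (0.929) and Casp4 (0.885). For replicate 3 of BMDM-WT this held for Il1a (0.887), Hif1a (0.88), Pltp (0.955), Slc7a11 (0.873) and Batf2 (0.893). For replicate 3 of BMDM-Nur77-KO this held for Klf4 (0.937) and Trim34a (0.9). For replicate 1 of BMDM-WT this held for Scd2 (0.839). For replicate 2 of BMDM-Nur77-KO this held for Hamp (0.959). For replicate 2 of BMDM-WT this held for Bcl2l11 (0.853). Ccl24 (at most 0.409 CPM) and Hamp (at most 0.985 CPM) were at low levels in BMDM-Nur77-KO, where a few counts make the gap. Replicate 4 of BMDM-Nur77-KO accounted for 10 of the 20 and replicate 3 of BMDM-WT for 5, and these are the libraries that also stood apart in GC content. The part of GC content in the single values was not tested.

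The genes named were mostly chosen for their differences at 18 h, which enter the test of the change from 0 h. A count among them therefore cannot be set against the 1060 of 11279 tested genes (9.4%) that passed this test. For 53 of the genes named, the genotype difference at 18 h departed from that at 0 h in the test of the difference itself (edgeR interaction of genotype and time, adjusted p under 0.05). The differences of the log2 fold changes, in brackets, were largest for Ch25h (3.16), Ptgs2 (3.03), Gbp4 (2.81), Gbp5 (2.71), Cxcl10 (2.29), Nr4a3 (2.28), Kynu (2.17), Ccne1 (2.06), Ciita (1.99), Mtus1 (1.75) and Gbp3 (1.61). Values a little lower were found for Il1a (1.54), Intu (1.54), Ccl22 (1.49), Abhd18 (1.41), Larp1b (1.41), Slc7a2 (1.39), Tyms (1.35), Cd40 (1.34), Klf4 (1.31), Batf2 (1.29), Nfkb2 (1.21) and Nfkbib (1.20). Then followed Nr4a2 (1.16), Tpx2 (1.16), Hcar2 (1.14), Acsl1 (1.06), Mki67 (1.03), Sorbs3 (0.90), Hif1a (0.87), Ifih1 (0.86), Hspa1a (0.82), Pla2g4a (0.77), Casp4 (0.76) and Cflar (0.60). The smallest positive values were those of Mertk (0.49) and Pfkfb3 (0.45). In all of these BMDM-Nur77-KO stood higher at 18 h. For Zdhhc2 (1.88) and Ddx58 (0.99) the value was positive because a gene lower at 0 h was less so at 18 h. Negative values, in genes lower at 18 h, were those of Tgfbi (-1.98), Fcgr2b (-1.94), Scd2 (-1.51), Tagln2 (-1.28), S1pr1 (-1.08), Ass1 (-0.84), Adam8 (-0.78), C5ar1 (-0.77), Itgam (-0.66), Bcl2l11 (-0.63), Zfp36l1 (-0.60), Alox5ap (-0.59), Pparg (-0.59) and Pycard (-0.54).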

How the results depend on the processing

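With all genes counted at an adjusted p under 0.05 in edgeR and no limit on the fold change, 1316 were higher and 1105 lower, and with a log2 limit of 1 there were 277 and 150. Whether replicate numbers pair the samples could not be read from the counts, and the samples were treated as unpaired. Deviations from the group means correlated at 0.235, 0.241, -0.225 and -0.455 between same-numbered libraries. The 2 deviating libraries weigh on such values, since replicate 4 of BMDM-Nur77-KO and replicate 3 of BMDM-WT correlated at 0.623. With the replicate block in the 8 libraries alone, 493 genes were higher and 292 lower, and in all 32 libraries 635 and 445. Removing the GC trend from each library gave 1632 in place of 1060 genes whose genotype difference changed from 0 h to 18 h. Without 1 library at a time, 562 to 783 genes were higher, 389 to 532 lower, 898 to 1230 changed from 0 h, and 95 to 107 of the 276 genes induced at 1 h and 5 h were higher. The other alternatives stayed within 1.5 times, among them DESeq2 (678 higher, 454 lower). Of the 93 genes named by the rule, 78 kept their call in every alternative run for them and 15 lost it in at least 1, which were 64 of 1760 values, and none changed direction. The cause of these changes was not tested. Rounding and the sampling of low counts limit genes of a few CPM.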
